A study of Mus musculus with 10 samples.

Results

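The genes described here are 36 members of the synaptic vesicle and the glutamatergic synapse, measured by RNA seq in libraries labelled as microglia. They were taken by gene symbol from a list, and all 36 were present among the 24421 symbols of the count files and among the 18727 genes that passed the filter on low counts. There were 3 libraries from WT mice, 4 from APP/PS1 mice and 3 from APP/PS1 mice given N-AS (called APP/PS1+N-AS), all at 9 months of age, with 2 mice pooled in each library. APP/PS1 mice carry transgenes for mutant human amyloid precursor protein and mutant presenilin-1 and develop amyloid plaques, and the treated group carried the same transgenes. N-AS, or N-acetyl sphingosine, is sphingosine with an acetyl group on its nitrogen. It was injected under the skin each day at 30 mg/kg for 8 weeks from 7 months of age, and by the study's description of the experiment the untreated APP/PS1 mice received vehicle, which the sample labels do not state. Cells were taken from cortex by papain digestion and an Optiprep density gradient, without a sort on surface markers, so the libraries could hold RNA from other brain cells. The promoter that drives the transgenes is not given in the sources used here.

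A chemical synapse passes a signal from the axon terminal of a neuron to the membrane of the next. In the terminal, glutamate is loaded into vesicles by vesicular glutamate transporters, vesicles are held at the active zone by large scaffold proteins, and SNARE proteins fuse them with the membrane when synaptotagmin senses calcium. On the other side, AMPA, NMDA and metabotropic glutamate receptors are anchored by PSD-95, SHANK and Homer scaffolds, CaMKII and neurogranin read the calcium signal, and neurexins and neuroligins join the membranes. These proteins are made by neurons. Microglia engulf synaptic material, and loss of synapses is a known feature of amyloid models.

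Total counts ranged from 8805804 to 19432075 per library, and the members took 1.20% to 1.98% of them. Expression is given as CPM, read counts scaled to a common library size, and list means are the mean over the genes of log2 CPM. Several measured facts stand before the results. The mouse App counts did not mark the transgene, with 1406 to 1753 CPM in WT and 1068 to 1394 CPM in APP/PS1 libraries. Xist, the RNA that silences an X chromosome in female cells, had 1.59 to 4.40 CPM in the WT libraries and 453 to 579 CPM in those of APP/PS1. APP/PS1+N-AS libraries 1, 2 and 3 had 463, 469 and 2.14 CPM of Xist, although the study's methods describe male mice only. In the labels, replicates 1 and 2 of every group carry library numbers 1 to 6, while 7 to 10 are WT 3, APP/PS1 3, APP/PS1 4 and APP/PS1+N-AS 3. No label says what a library number stands for.

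The microglial label was checked with 14 microglial markers. They were all detected, with a mean log2 CPM of 5.56, 5.75 and 6.13 in WT 1, WT 2 and WT 3, of 7.39 to 7.76 in APP/PS1 and of 6.57 to 7.07 in APP/PS1+N-AS libraries. The 36 synapse members had a mean of 7.25, 7.47 and 8.10 in the WT libraries, which is above that of the microglial markers in each. In APP/PS1 the synapse means were 7.66, 7.47, 7.07 and 7.35, and in APP/PS1+N-AS they were 7.63, 7.46 and 7.71. The synapse mean minus the microglial mean ran from 1.69 to 1.97 among WT libraries, from −0.69 to 0.28 among APP/PS1 and from 0.39 to 1.14 among APP/PS1+N-AS libraries. A set of 10 neuronal markers outside the synapse, such as the neurofilaments and Map2, summed to between 677 and 1664 CPM in WT. The sums lay between 744 and 987 CPM in APP/PS1 and between 840.3 and 1055 CPM in APP/PS1+N-AS, with 0 of the 10 at 0 counts in any library. The libraries thus held neuronal transcripts beside microglial ones in every group. In bulk libraries, fewer neuronal fragments and less RNA per fragment cannot be told apart.

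**Figure D1:**
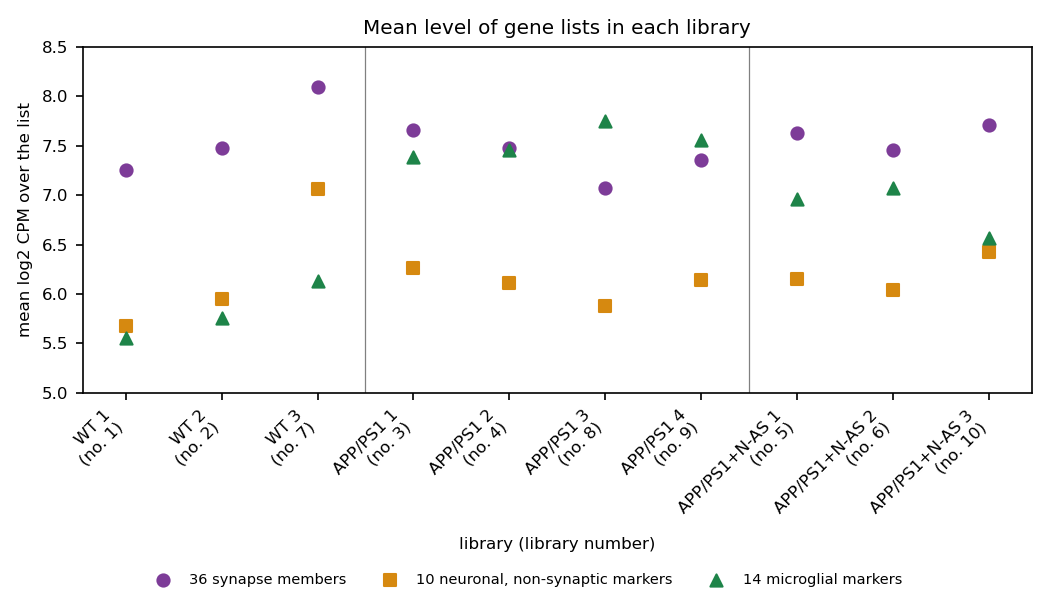
Mean log2 CPM (y axis) of the 36 synapse members (circles), 10 neuronal, non-synaptic markers (squares) and 14 microglial markers (triangles) in each of the 10 libraries (x axis, library number in parentheses), with groups split by vertical lines. In WT 3 the synapse members stood at 8.10 and the neuronal markers at 7.07, the highest of the 10 libraries for each, and the microglial markers were above the synapse members in APP/PS1 3 and APP/PS1 4 only.

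Levels of the members were compared per length, as CPM divided by the length in kb of all exons of the gene in GENCODE M21. The highest were Cplx2 with 929 ± 464 CPM per kb (SD, n = 10 libraries) and Gria1 with 460 ± 167, followed by Camk2a with 182 ± 23.1, Snap25 with 157 ± 83.3 and Nrgn with 105 ± 38.0. The ranges of 1 SD around these means overlapped between neighbours, except for Gria1 and Camk2a. The lowest were Nlgn1 with 4.12 ± 0.999, Nlgn3 with 3.92 ± 1.11 and Slc17a6 with 1.34 ± 0.637. Nlgn1 and Nlgn3, which encode postsynaptic neuroligins, did not differ beyond their spread, while the range of 1 SD around Slc17a6 lay below both. Slc17a6, which encodes the vesicular glutamate transporter VGLUT2 of subcortical neurons, had 45 to 315 counts per library and is the least precise member. Slc17a7, which encodes the cortical transporter VGLUT1, had 37.6 ± 13.0 CPM per kb.

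The library WT 3 stood apart from the other libraries in these genes. Of the 36 members, 28 had their highest CPM of all 10 libraries in WT 3, against 20.7% of all genes tested, and 29 were higher in WT 3 than in WT 1 and WT 2, against 34.3% of all genes. The median difference of WT 3 from the mean of WT 1 and WT 2 was 0.85 on the log2 scale for the members and −0.08 for all genes, and 15 members were at least 2-fold higher in WT 3, against 4.58% of all genes. The members not highest in WT 3 were Cplx2, Gria1, Camk2a, Shank1, Shank2, Shank3, Rims1 and Bsn. WT 3 also had the highest mean of the neuronal, non-synaptic markers, 7.07 against 5.68 and 5.95 in WT 1 and WT 2, and of 8 inhibitory synapse genes, 6.88 against 5.50 and 5.67. The synapse mean minus that of the neuronal markers was 1.58, 1.53 and 1.03 in the WT libraries, so it was lowest in WT 3. Endothelial markers went the other way, with a mean of 5.58 in WT 3 and 6.70 and 6.97 in WT 1 and WT 2. The part of these cell types and of the library in the level of the synapse genes was not tested. Because of this library, the median and direction of the members in each comparison with WT are given with and without WT 3.

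**Figure D2:**
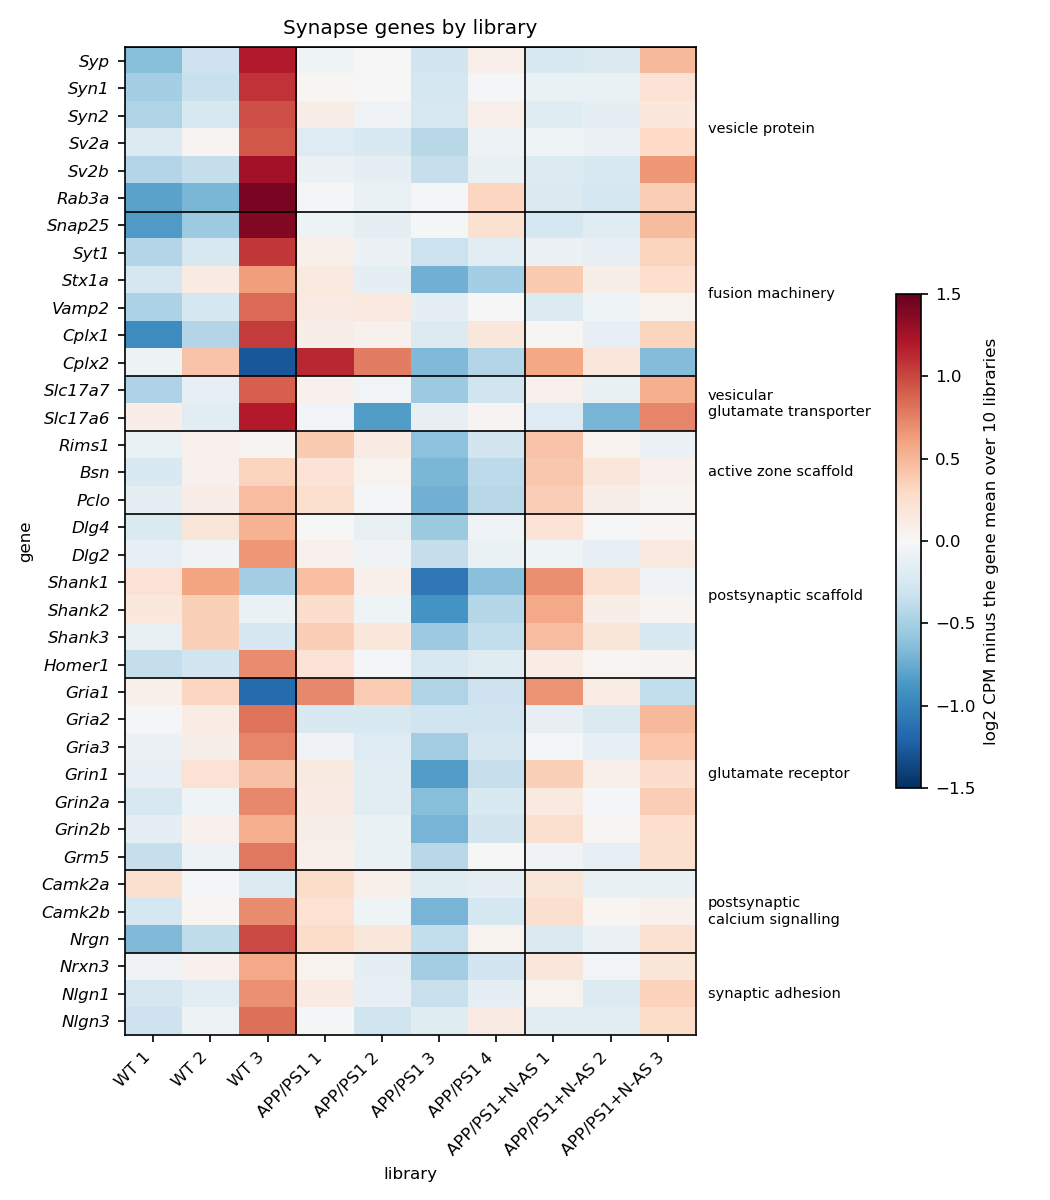
Heat map of the 36 members (rows, names at left, grouped by the role at right) in the 10 libraries (columns, ordered by group), with colour giving log2 CPM minus the mean of the gene over the 10 libraries, from −1.5 or below (blue) to 1.5 or above (red). Most rows are reddest in WT 3, where 28 of 36 members had their highest level, while Cplx2 and Gria1 are bluest there.

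All 6 vesicle protein genes were highest in WT 3. Syp encodes synaptophysin, an abundant membrane protein of the vesicle. It was 153, 193 and 545 CPM in WT 1, WT 2 and WT 3, 229, 239, 196 and 252 CPM in the APP/PS1 libraries, and 204, 206 and 336 CPM in the APP/PS1+N-AS libraries. All APP/PS1 libraries were above WT 1 and WT 2 and below WT 3, so the groups overlapped. The fitted log2 fold change of APP/PS1 against WT was −0.38 (SE, the standard error, 0.38, adjusted p = 0.678 by the quasi-likelihood test of edgeR, adjusted over all genes by Benjamini and Hochberg), and without WT 3 it was 0.41. Sv2a, which encodes a vesicle glycoprotein, was 101, 120 and 221 CPM in WT, 102, 99.2, 86.8 and 110 CPM in APP/PS1, and 111, 109 and 143 CPM in APP/PS1+N-AS. Sv2a had a log2 fold change of −0.57 in APP/PS1 against WT (adjusted p = 0.254 from edgeR), and WT 1 lay within the range of the APP/PS1 libraries. Without WT 3 the log2 fold change of Sv2a was −0.15. Rab3a, a small GTPase of the vesicle, is named for its value without WT 3, outside the rule for named genes. It was 37.4, 40.5 and 175 CPM in WT, 64.0, 60.9, 64.2 and 81.6 CPM in APP/PS1, and 56.3, 54.2 and 84.0 CPM in APP/PS1+N-AS. Its level in WT 3 was 4.49 times the mean of WT 1 and WT 2. Syn1, Syn2 and Sv2b were 2.83, 2.48 and 3.16 times as high in WT 3 as in the mean of the other WT libraries. Syn1 and Syn2 encode synapsins, which tether vesicles in the reserve pool. Syp and Syn1, with Gria3 and Nlgn3, lie on the X chromosome.

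Stretches before RefSeq starts of Syn1 and Nlgn1 are shown. Of the 25 members with a promoter window, only these genes had a window with the exact letters searched for the left site of RE1. RE1 is the element bound by REST, a repressor that keeps many synapse genes silent outside neurons. Promoter windows of 300 bases from RefSeq (GRCm38.p6), from 250 bases before to 50 after the start, were matched for 25 of the 36 members. The letters TTCAGCACC, searched on both strands, were in windows of 2 members, and in 0.371% of all 32851 windows. The other site, searched as GGACAGC, was in a window of 1 member, Gria2, and in 6.56% of all windows. The whole RE1 element was searched only as an exact string that contains both sites. That string was in windows of 0 members and in 1 of all 32851 windows (0.00304%). Elements that differ from it by any fixed letter were not searched for. The search therefore cannot tell whether a member has an RE1 element. A match in a window is a description of letters only. The stretches printed run from 250 to 101 bases before the start, 5′ to 3′ on the strand of the gene, with the match in capitals. Syn1 is on the minus strand at chrX:20921019-20921168 and Nlgn1 on the minus strand at chr3:26154087-26154236, and neither stretch overlaps an exon of its gene in GENCODE M21. The Nlgn1 stretch lies before an alternative start inside the gene, which spans chr3:25426215-26332460 in GENCODE M21, so it is intronic to the longer transcripts. The window at the 5′ end of Nlgn1 did not hold these letters.
Syn1: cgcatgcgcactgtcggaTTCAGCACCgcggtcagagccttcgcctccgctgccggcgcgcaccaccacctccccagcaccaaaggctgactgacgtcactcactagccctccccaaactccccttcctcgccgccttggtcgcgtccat
Nlgn1: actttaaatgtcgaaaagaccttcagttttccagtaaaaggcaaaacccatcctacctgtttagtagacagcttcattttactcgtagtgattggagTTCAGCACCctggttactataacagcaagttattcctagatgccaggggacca
Syn1 was 76.8, 87.0 and 232 CPM in WT, 112, 109, 91.5 and 107 CPM in APP/PS1, and 102, 102 and 127 CPM in APP/PS1+N-AS. Nlgn1 was 45.3, 48.4 and 86.7 CPM in WT, 59.0, 49.7, 43.0 and 49.2 CPM in APP/PS1, and 56.1, 47.1 and 68.7 CPM in APP/PS1+N-AS. WT 3 was the highest library for both genes, and the groups overlapped.

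Among the genes of the fusion machinery, Snap25 encodes a SNARE protein of the terminal membrane. Snap25 was 541, 664 and 2544 CPM in WT, 924, 881, 952 and 1134 CPM in APP/PS1, and 809, 857 and 1345 CPM in APP/PS1+N-AS. WT 3 had 4.22 times the mean of WT 1 and WT 2, which were the lowest of the 10 libraries. Stx1a, which encodes the partner SNARE syntaxin 1A, was 93.5, 121 and 172 CPM in WT, 123, 101, 67.2 and 77.9 CPM in APP/PS1, and 146, 118 and 132 CPM in APP/PS1+N-AS. APP/PS1 3 and APP/PS1 4 were the lowest libraries for Stx1a, and each pair of groups overlapped. Syt1, the calcium sensor synaptotagmin 1, and Vamp2, the vesicle SNARE, were 2.63 and 2.33 times as high in WT 3 as in the mean of the other WT libraries, and Cplx1, a complexin that clamps the SNARE complex, was 3.28 times as high. The second complexin gene did the opposite. Cplx2 was 3877, 5491 and 1681 CPM in WT, 8928, 6955, 2579 and 3006 CPM in APP/PS1, and 6098, 4598 and 2588 CPM in APP/PS1+N-AS. In each group the libraries with numbers 7 to 10 were below those with numbers 1 to 6.

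For the vesicular glutamate transporters, Slc17a7 was 140.4, 178 and 362 CPM in WT, 202, 188, 133 and 158 CPM in APP/PS1, and 202, 180.03 and 284 CPM in APP/PS1+N-AS. WT 3 and APP/PS1+N-AS 3 were the highest libraries. Slc17a6 was 7.13, 5.88 and 15.2 CPM in WT, 6.47, 3.72, 6.08 and 6.86 CPM in APP/PS1, and 5.80, 4.08 and 11.1 CPM in APP/PS1+N-AS. It had the most negative log2 fold change of the members in APP/PS1 against WT, −0.71 (SE 0.40, adjusted p = 0.406 from edgeR), and the groups overlapped. Without WT 3 its log2 fold change was −0.15. At the active zone, Pclo, which encodes the scaffold Piccolo, was 560, 659 and 850 CPM in WT, 726, 610, 373 and 463 CPM in APP/PS1, and 796, 656 and 634 CPM in APP/PS1+N-AS. The lowest libraries were again APP/PS1 3 and APP/PS1 4. Bsn, the related scaffold Bassoon, and Rims1, which links vesicles to calcium channels, were lowest in the same libraries, and WT 3 was 1.33 and 1.04 times the mean of WT 1 and WT 2.

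In the postsynaptic scaffold, Shank1 was 281, 364 and 170.3 CPM in WT, 330.1, 254, 115 and 157 CPM in APP/PS1, and 392, 283 and 233 CPM in APP/PS1+N-AS. Like Cplx2, Shank1 was lower in WT 3 than in WT 1 and WT 2, by 0.91 on the log2 scale. Its relatives Shank2 and Shank3, which encode the same class of scaffold, were 0.778 and 0.766 times the mean of WT 1 and WT 2 in WT 3, while Dlg4, the gene of PSD-95, Dlg2 and Homer1 were 1.44, 1.67 and 2.04 times as high. WT 3 was thus the lowest WT library for Shank1 and the highest for Dlg4, Dlg2 and Homer1.

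Among the receptors, Gria1 and Gria2 encode AMPA receptor subunits. Gria1 was 2747, 3243 and 1172 CPM in WT, 4286, 3375, 1905 and 2104 CPM in APP/PS1, and 4159, 2803 and 2008 CPM in APP/PS1+N-AS. Gria2 was 510.2, 560.3 and 911 CPM in WT, 443, 441, 419 and 421 CPM in APP/PS1, and 474, 443 and 723 CPM in APP/PS1+N-AS. All WT libraries were above all APP/PS1 libraries for Gria2, while Gria1 overlapped and was lowest in WT 3. The ratio of Gria1 to Gria2 was 5.38, 5.79 and 1.29 in WT and 4.55 to 9.68 in APP/PS1. Grin1, the obligatory NMDA receptor subunit, was 232, 295 and 344 CPM in WT, 278, 225, 141 and 199 CPM in APP/PS1, and 325, 267 and 303 CPM in APP/PS1+N-AS. Only APP/PS1 1 reached into the range of the APP/PS1+N-AS libraries. For the other receptor genes, Gria3, Grin2a, Grin2b and Grm5, WT 3 was 1.66, 1.83, 1.5 and 1.99 times the mean of WT 1 and WT 2.

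Of the calcium signalling genes, Camk2a, the alpha subunit of CaMKII, varied least between libraries relative to its mean. It was 1590.4, 1338 and 1172 CPM in WT, 1629, 1426, 1192 and 1222 CPM in APP/PS1, and 1534, 1254 and 1245 CPM in APP/PS1+N-AS, and its group means were 1367 CPM in WT and 1367 CPM in APP/PS1. Camk2b, the beta subunit, and Nrgn, which encodes the calmodulin-binding protein neurogranin, were 1.77 and 2.84 times the mean of WT 1 and WT 2 in WT 3. The adhesion gene Nrxn3, which encodes a presynaptic neurexin, was 202, 218 and 311 CPM in WT, 217, 189, 146 and 172 CPM in APP/PS1, and 235, 204 and 238 CPM in APP/PS1+N-AS. Only APP/PS1 1 lay within the range of the WT libraries.

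The comparison of APP/PS1 with WT asks how the transgenes are reflected in these transcripts. Since Xist was low in all WT and high in all APP/PS1 libraries, genotype and the sex that Xist marks cannot be told apart here, for the X-linked Syp, Syn1, Gria3 and Nlgn3 and for the other members. At an adjusted p under 0.05 in edgeR's test, 0 of the 36 members differed, against 3.47% of all 18727 genes, and DESeq2 and limma also called 0 members. At an unadjusted p under 0.05 there were 4 members, Gria2, Gria3, Sv2a and Nrxn3, all lower in APP/PS1, against 8.9% of all genes that were lower at that level. Gria2 had the lowest p, with 431 CPM in APP/PS1 and 661 CPM in WT on average, a log2 fold change of −0.62 (SE 0.24, 95% confidence interval −1.14 to −0.09, adjusted p = 0.208 from edgeR). It was the single member whose groups did not overlap, against 14.9% of all genes. The log2 fold change was below 0 for 33 of 36 members, against 58.8% of all genes, with a median of −0.35 against −0.07. Camk2a, Cplx2 and Gria1 were the exceptions, with 0.00, 0.54 and 0.29. The other synapse genes on a textbook list of 77 showed a median of −0.33 and 70 of 77 below 0. Their mean log2 CPM differed by −0.28 in all libraries and by 0.02 within library numbers 1 to 6. Within numbers 7 to 10, where WT 3 is the only WT library, it differed by −0.70.

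The sign depended on WT 3. Without WT 3, the median of the members was −0.02 and 16 of 36 were above 0. In that fit 1 of 36 members, Rab3a, passed the adjustment, against 923 of all 19112 genes tested. Rab3a was higher in APP/PS1 (log2 fold change 0.81, SE 0.20, adjusted p = 0.047 from edgeR). Snap25 and Cplx1 then had log2 fold changes of 0.70 and 0.71 with adjusted p-values of 0.12 and 0.062 from edgeR, and Gria2 was −0.30 (adjusted p = 0.411). The unadjusted p from edgeR was then 0.153 for Gria2, 0.212 for Gria3, 0.367 for Sv2a and 0.240 for Nrxn3. Members with an unadjusted p under 0.05 were Rab3a, Cplx1, Snap25, Vamp2, Nrgn and Syn1, all higher in APP/PS1. The mean log2 CPM of all members was 7.61 ± 0.44 (SD, n = 3) for WT and 7.39 ± 0.25 (SD, n = 4) for APP/PS1. Their difference of −0.22 became 0.03 without WT 3. It was 0.21 when only library numbers 1 to 6 were used. In numbers 7 to 10, where WT 3 is the only WT library, it was −0.89. The difference was thus smaller than the spread of the WT libraries and of opposite sign in the library sets. Microglial markers moved with the groups, by 1.73 higher in APP/PS1, with 12 of 14 passing the adjustment, and oligodendrocyte markers by −1.19, with 3 of 10 passing. Their part in the synapse values was not tested.

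**Figure D3:**
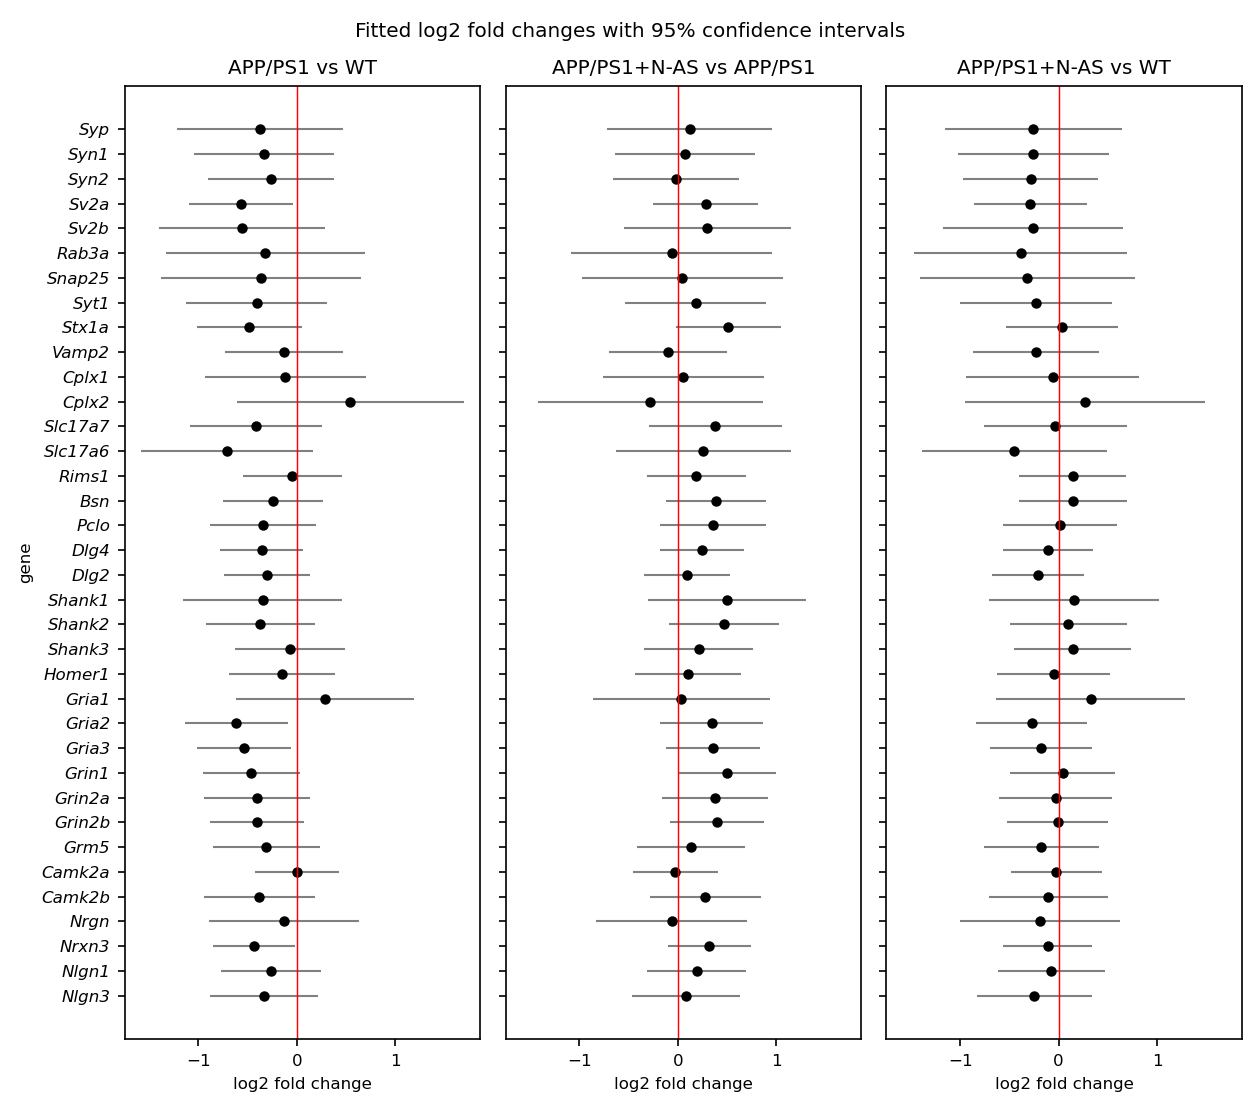
Fitted log2 fold change (x axis, points) with its 95% confidence interval (bars) for each of the 36 members (y axis) in the 3 comparisons, from the edgeR model of all 10 libraries. In APP/PS1 against WT 33 of 36 points lie left of 0 and the intervals of Gria2, Gria3, Sv2a and Nrxn3 exclude 0 before adjustment, while in APP/PS1+N-AS against APP/PS1 30 points lie right of 0.

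The contrast between the library sets was fitted as an interaction of group and library set, which was added after WT 3 had been seen to stand apart. WT 3 is the only WT library in the second set, so its spread is taken from the other libraries. The counts rest on that library and are not independent evidence. The APP/PS1 libraries also differed between the sets. For Pclo their log2 difference, 7 to 10 minus 1 to 6, was −0.68, against 0.48 in WT, and for Rab3a it was 0.21 against 2.16. Between numbers 7 to 10 and numbers 1 to 6, the difference of APP/PS1 from WT differed at an adjusted p under 0.05 in edgeR for 26 of 36 members, all towards lower values in 7 to 10, against 5.63% of all genes in that direction and 9.78% in either. The median change was −1.10 for the members and 0.08 for all genes. Rab3a changed by −1.94 (SE 0.21, adjusted p = 0.00481 from edgeR), with a difference of 0.68 within numbers 1 to 6 and −1.27 within 7 to 10. Snap25 changed by −1.87, from 0.59 to −1.29, and Nrgn by −1.87, from 0.74 to −1.15. By role, 6 of 6 vesicle proteins, 5 of 6 fusion genes, 3 of 3 adhesion genes, 5 of 7 receptors, 2 of 3 active zone scaffolds, 2 of 3 calcium signalling genes, 1 of 2 transporters and 2 of 6 postsynaptic scaffolds were among the 26. Cplx2 and Camk2a had changes of −0.03 and −0.02 and Gria1 of 0.42, with adjusted p-values of 0.97, 0.973 and 0.483 from edgeR. The count fell to 12 without APP/PS1 1, to 16 without APP/PS1 2 and to 12 without APP/PS1 3, and it was 21 to 28 when any of the other libraries that could be left out was removed. The library set and WT 3 cannot be told apart. Of the 10 neuronal, non-synaptic markers 8 changed in the same direction, as did 5 of the 8 inhibitory synapse genes, whereas 8 of 10 endothelial markers changed towards higher values.

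**Figure D4:**
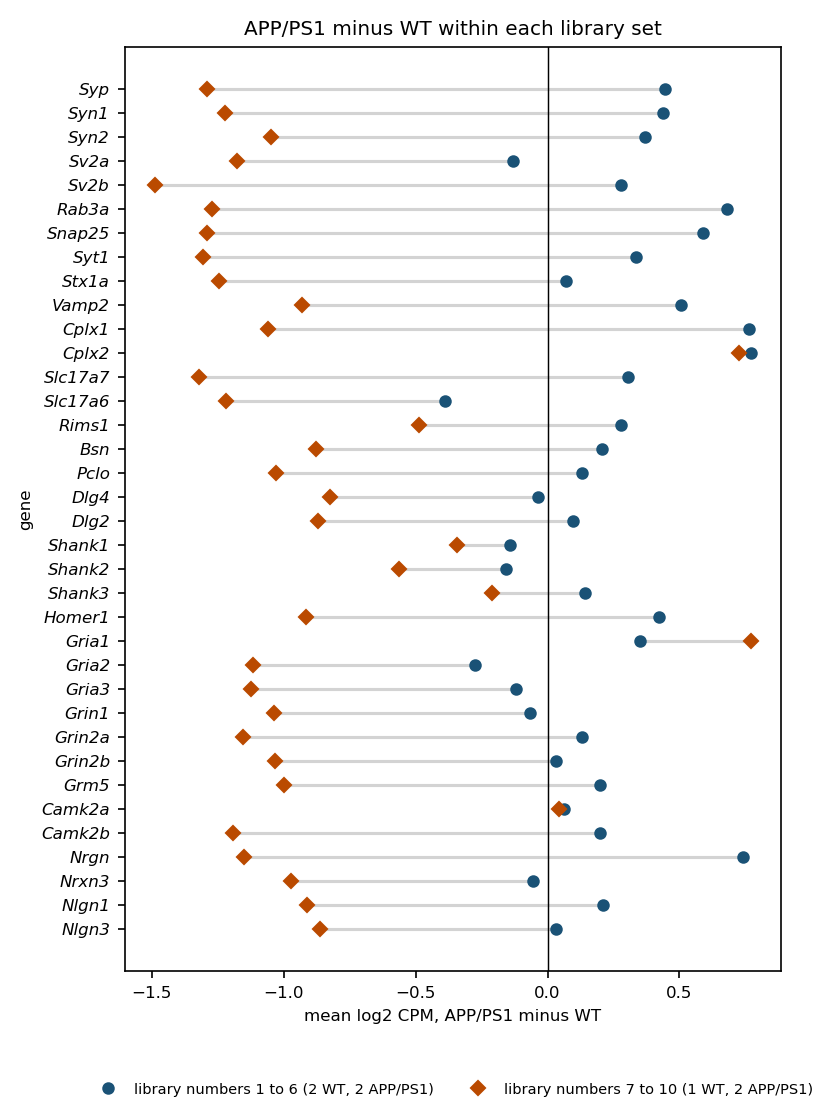
Mean log2 CPM of APP/PS1 minus WT (x axis) for each member (y axis) within library numbers 1 to 6 (circles, 2 WT and 2 APP/PS1 libraries) and within 7 to 10 (diamonds, 1 WT and 2 APP/PS1 libraries), joined by a line. Vesicle and fusion genes such as Rab3a (0.68 and −1.27) cross 0 between the sets, while the points of Cplx2 and Camk2a nearly coincide.

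The comparison of APP/PS1+N-AS with APP/PS1 asks what the treatment changed in mice with the same transgenes. At an adjusted p under 0.05, edgeR called 0 of 36 members and 0% of all genes, and DESeq2 and limma called 0 members. The unadjusted p was under 0.05 for 1 member, Grin1, against 8.83% of all genes. Grin1 was 298 CPM with N-AS and 211 CPM without on average, a log2 fold change of 0.50 (SE 0.22, 95% confidence interval 0.01 to 1.00, adjusted p = 0.557 from edgeR). Stx1a had the highest fold change, 0.51 (SE 0.24, adjusted p = 0.578 from edgeR), and Cplx2 the lowest, −0.28 (SE 0.52, adjusted p = 0.91). The log2 fold change was above 0 for 30 of 36 members, against 48.6% of all genes, with a median of 0.20 against −0.01. By role, above 0 were 7 of 7 receptors, 6 of 6 postsynaptic scaffolds, 3 of 3 active zone scaffolds, 3 of 3 adhesion genes, 2 of 2 transporters, 4 of 6 vesicle proteins, 4 of 6 fusion genes and 1 of 3 calcium signalling genes. Of these Gria1, at 0.04, was −0.076 with a replicate block. With that block the median of the members was 0.14 and 29 of 36 were above 0. The groups did not overlap for 2 members, Dlg4 and Gria2, both higher with N-AS, against 12.7% of all genes. Dlg4 was 143, 131, 96.5 and 137 CPM in APP/PS1 and 164, 143.3 and 145 CPM in APP/PS1+N-AS, so the gap between the nearest libraries was small.

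The difference in the mean over the members was 0.21 in all libraries, −0.03 within library numbers 1 to 6 and 0.50 within 7 to 10, where APP/PS1+N-AS 3 is the only treated library. The same difference for microglial markers was −0.68, −0.41 and −1.09, with 0 of 14 passing the adjustment. Oligodendrocyte markers had differences of 0.50, 0.23 and 0.61, with 10 of 10 above 0 and 0 passing. The part of these markers in the synapse values was not tested. APP/PS1+N-AS 3 is also the treated library with Xist at 2.14 CPM. Without it, 25 of 36 members were above 0, with a median of 0.11. The difference did not change between the library sets at an adjusted p under 0.05 for any of the 36 members, against 0.101% of all genes, and 12 had an unadjusted p under 0.05 in this test, against 10.8% of all genes.

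APP/PS1+N-AS was also set beside WT. The tests share the WT libraries with the first comparison and the treated libraries with the second, so their values are not independent. EdgeR called 0 of 36 members at an adjusted p under 0.05, against 0.187% of all genes, DESeq2 and limma called 0, and 0 members had an unadjusted p under 0.05, against 6.73% of all genes. The groups overlapped for all 36 members, against 8.81% of genes without overlap. The median log2 fold change was −0.11 with 26 of 36 below 0, against 56.2% of all genes. With limma after quantile normalization the median was −0.013 and 19 of 36 were below 0. The difference in the mean over the members was −0.01 in all libraries, 0.18 within library numbers 1 to 6 and −0.39 within 7 to 10. Xist was 463 and 469 CPM in APP/PS1+N-AS 1 and 2, against 4.40 and 2.29 CPM in WT 1 and WT 2. Within numbers 1 to 6 the group and the sex that Xist marks therefore cannot be told apart. Within 7 to 10, Xist was 2.14 CPM in APP/PS1+N-AS 3 and 1.59 CPM in WT 3. Sv2a had the lowest p (log2 fold change −0.29, SE 0.26, adjusted p = 0.902 from edgeR), Gria1 the highest value (0.32, SE 0.44, adjusted p = 0.948) and Slc17a6 the lowest (−0.45, SE 0.42, adjusted p = 0.907). Without WT 3 the median was 0.22 and 32 of 36 members were above 0. Sv2a, Gria1 and Slc17a6 then had log2 fold changes of 0.13, 0.0067 and 0.11. In numbers 7 to 10 this comparison is 1 library against 1, with the spread taken from the other libraries. The change between the library sets passed the adjustment for 2 members, Rab3a and Syn1, both towards lower values in 7 to 10, against 0.993% of all genes in either direction and 0.384% in that one. That count was 5 without WT 1, 11 without WT 2, and 0 without APP/PS1+N-AS 1 or APP/PS1+N-AS 2.

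Cplx2 and Gria1 ran against their closest relatives. The ratio of Cplx2 to Cplx1 was 125 in WT 1, 125.3 in WT 2 and 13.7 in WT 3, 141 and 112 in APP/PS1 1 and 2 and 49.7 and 44.9 in APP/PS1 3 and 4, and 101, 83.7 and 34.3 in the APP/PS1+N-AS libraries. The ratio was thus lower in library numbers 7 to 10 in all 3 groups. Genes that are not known for expression in cortex showed the same order of libraries, and were chosen after their values had been seen. Klk14, a kallikrein protease of epithelia, was 12595 and 14480.4 CPM in WT 1 and WT 2 and 2786 CPM in WT 3, 20498 and 19020.2 CPM in APP/PS1 1 and 2 and 6744 and 7613 CPM in APP/PS1 3 and 4, and 15911, 11141 and 6268 CPM in the APP/PS1+N-AS libraries. Pigr, the epithelial receptor for polymeric immunoglobulins, and Nkx2-1, a transcription factor of lung, thyroid and ventral forebrain, reached 18772 and 7241 CPM. Among the other synapse genes, Rab3c and Sv2c did likewise, with 2012, 2815 and 893 CPM and 3433, 2864 and 827 CPM in WT 1, WT 2 and WT 3.

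**Figure D5:**
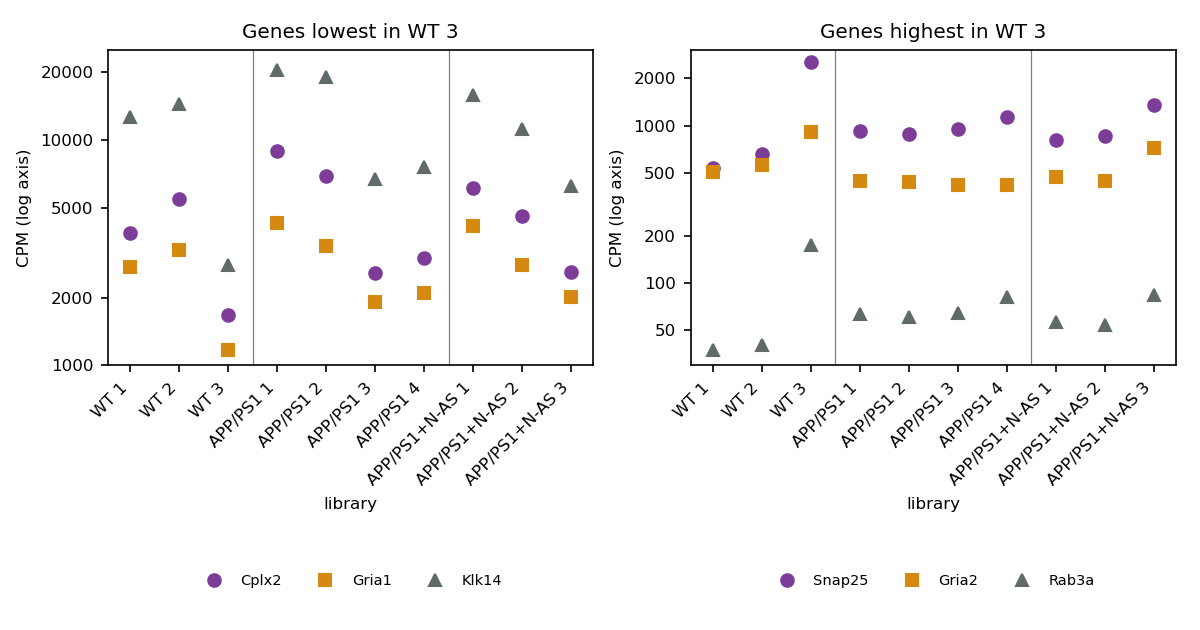
CPM on a log axis (y) in each library (x, groups split by vertical lines) for Cplx2, Gria1 and Klk14 (left), which were lowest in WT 3, and for Snap25, Gria2 and Rab3a (right), which were highest in WT 3. In WT 3 Cplx2 was at 1681 CPM and Klk14 at 2786 CPM, while Snap25 was at 2544 CPM.

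A feature of sequence marked several of these genes. In GENCODE M21 (GRCm38), the 3′ UTR of Cplx2 (chromosome 13) holds an unbroken run of AAG repeats of 78 bases within a stretch of 264 bases of purines only, and that of Shank1 (chromosome 7) a run of CTT repeats of 75 bases within 253 pyrimidines. Gria2 (chromosome 3) holds an AAG run of 81 bases in a noncoding transcript only, and Gria1 and the other members hold none of at least 15 bases. Klk14, Pigr, Nkx2-1 and Rab3c hold runs of 99, 96, 87 and 78 bases in their 3′ UTRs, and Sv2c holds no such run but a stretch of 150 pyrimidines. Over the 17938 genes matched to the annotation, 95.8% of those tested, 51 genes (0.284%) held a run of at least 45 bases. Their median difference of WT 3 from WT 1 and WT 2 was −0.91 on the log2 scale, with 39 of 51 lower in WT 3, against −0.08 and 55.0% for the 17720 genes without a run of 15 bases. Their median level was 6.604 log2 CPM against 3.829. The lengths at which runs were counted were chosen after the values had been seen, and the part of the repeats in the counts was not tested. Without Cplx2 and Gria1, which ran against their closest relatives, the difference in the mean over the members was −0.26 for APP/PS1 against WT. It was 0.22 for APP/PS1+N-AS against APP/PS1. Gria1 holds no run, and Shank1 and Gria2, which hold one, were kept, so these values do not describe the repeats.

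Beyond the members, 77 further synapse genes were counted from a textbook list. In APP/PS1 against WT, 3 of 77 passed the adjustment, all lower in APP/PS1, against 0.796% of all genes that were lower. Grin2c, an NMDA receptor subunit best known from cerebellum and also found in astrocytes, was 51.5, 57.1 and 40.4 CPM in WT, 30.5, 19.8, 21.9 and 21.4 CPM in APP/PS1, and 42.3, 35.9 and 45.1 CPM in APP/PS1+N-AS. Its log2 fold change was −1.09 (SE 0.18, adjusted p = 0.00755 from edgeR). Grm3, a metabotropic glutamate receptor of astrocytes and neurons, was 91.0, 94.9 and 98.3 CPM in WT, 44.1, 42.8, 58.1 and 44.3 CPM in APP/PS1, and 55.7, 54.5 and 86.0 CPM in APP/PS1+N-AS. It had a log2 fold change of −1.0 (SE 0.18, adjusted p = 0.0126 from edgeR). Ptprd, a receptor phosphatase that organises synapses, was 529 CPM in WT and 300 CPM in APP/PS1 on average, with a log2 fold change of −0.82 (SE 0.17, adjusted p = 0.0261 from edgeR) that missed the threshold without WT 1, WT 2, APP/PS1 3 or APP/PS1 4, with a replicate block and in a fit of the 2 groups alone, with adjusted p-values of 0.0637 to 0.0978 from edgeR. For all 3 genes the WT and APP/PS1 libraries did not overlap, and their differences were below 0 in both library sets. Within library numbers 1 to 6 and 7 to 10 the differences were −1.14 and −0.89 for Grin2c, −1.09 and −0.95 for Grm3, and −0.71 and −0.85 for Ptprd. The 10 astrocyte markers had a mean log2 CPM of 5.94, 6.04 and 5.91 in WT and of 6.12 to 6.94 in APP/PS1, with 2 of 10 called, both higher. The APP/PS1 mean exceeded that of WT by 0.18 in library numbers 1 to 6 and by 0.93 in 7 to 10. Astrocyte markers differed among themselves, with 5 of 10 below 0 and a median log2 fold change of −0.05. Gfap, which is part of the list mean, had a log2 fold change of 5.65. Gjb6, a gap junction gene, was 26.5, 30.0 and 23.0 CPM in WT and 15.5, 15.1, 32.5 and 22.7 CPM in APP/PS1. The part of astrocyte RNA in the values of Grin2c and Grm3 was not tested. DESeq2 called 7 genes of the list, all lower, and 1362 of all 18727 genes. A model with the library set as a covariate called 6 of the list, of which 1, Slc17a8, was higher, and 1055 of all genes. Against APP/PS1, APP/PS1+N-AS had 0 of 77 genes past the adjustment in edgeR and limma and 11 with an unadjusted p under 0.05, all higher, against 4.78% of all genes that were higher at that level. Among those with the lowest p-values were Grin2c and Kalrn, with log2 fold changes of 0.81 and 0.60 and adjusted p-values of 0.478 and 0.517 from edgeR. DESeq2 called Grin2c (adjusted p = 0.0165), 1 of the 77, and 79 of all genes. Kalrn encodes a regulator of small GTPases in dendritic spines. Against WT, 0 of 77 passed in edgeR, DESeq2 and limma and 2 had an unadjusted p under 0.05, Grm3 and Ptprd, at −0.54 and −0.45, and Cacng3, an AMPA receptor auxiliary subunit, had −0.41 without passing it.

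Reads of some members could be shared with other genes. In GENCODE M21, Syn1 overlaps Araf and Timp1, Syn2 overlaps Timp4, Rab3a overlaps Mpv17l2 and Shank1 overlaps 1700008O03Rik, each on the opposite strand, and Syt1 overlaps Gm5136 and Syn2 overlaps Gm17482 on the same strand. Whether counting used strand is not given in the sources used here, so how these reads were assigned is uncertain.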

How the data were processed

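Per the labels, RNA was depleted of rRNA, made into stranded libraries and sequenced as paired reads. The authors deposited raw counts per gene symbol for each library, made from TopHat alignments to mm10. The annotation and the strand setting are not given in the sources used here. The submitters' processing notes also name edgeR. Each file held 24481 lines, and 103 lines that shared 43 symbols were summed per symbol. Genes with low counts were removed by filterByExpr, which left 18727. The edgeR quasi-likelihood test (version 4.0.16, R 4.3.3) with TMM factors was fitted to all 10 libraries as 3 groups, with no covariate and Benjamini-Hochberg adjustment over all genes tested. The biological coefficient of variation was 27.4%. Log2 CPM used a prior count of 2. Calls were made at an adjusted p of 0.05. The test was tried first on simulated counts. DESeq2 1.42.0 and limma 3.58.1 were alternatives, with other scalings, filters, a replicate block, a library set covariate and each library left out. Annotation came from GENCODE M21 and promoters from RefSeq, read with Python 3.11.15.

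The members and the other lists were chosen with earlier results of these data known. Genes were named by a rule: the member with the highest mean CPM of each role, in each comparison the members with the largest positive and negative fold change and the lowest p, and the other synapse genes with the 3 lowest p-values, of which 1 is not reported here. Further members are named to give counts by name, or were chosen after their values were seen. No source says that libraries came from separately handled cultures or batches, so p-values measure the spread between pooled libraries. Same-numbered libraries of APP/PS1+N-AS and APP/PS1 deviated together, with correlations of 0.278, 0.142 and 0.309 for replicates 1, 2 and 3. Correlations between libraries of different replicate numbers were not examined, and same-numbered libraries also share a library set. The check therefore cannot tell pairing by number from the library set. The values printed come from the fit without the block, and the blocked ones are given where they differ in call or direction. In the comparisons with WT at least 1 correlation was below 0.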

Additional observations from a re-analysis of the deposited data

Results flagged for a closer look

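The difference of APP/PS1 from WT was not the same in library numbers 1 to 6 and 7 to 10 for 26 of the 36 members, by an interaction in edgeR that was added after WT 3 had been seen to stand apart. For APP/PS1+N-AS against WT this held for 2 members, Rab3a and Syn1. WT 3 is the single WT library in the second set, and APP/PS1+N-AS 3 the single treated one, so their spread is taken from the other libraries and the second result is 1 library against 1 there. Both counts rest on WT 3, library and set cannot be told apart, and the second count depended on which library was left out. The 36 members and their mean, in the 4 APP/PS1 libraries, were also searched for a library far from the others, and of 37 values 0 stood out, where chance alone gives about 1 in 20.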

How the results depend on the processing

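Of 611 values of named genes under alternatives, 559 kept their direction and side of the threshold, 45 turned direction, 6 lost and 1 gained a call. The replicate block called 0 members in each comparison and ended no call among the named genes beside that of Ptprd, which the fit of the 2 groups alone ended too. DESeq2 called 7 of the 77 other synapse genes in APP/PS1 against WT, where it called 1362 of all 18727 genes. In APP/PS1+N-AS against APP/PS1 it called 1 of the 77, and 79 of all genes. The library set covariate called 6 of the 77 in the first comparison, and 1055 of all genes. Members called in APP/PS1 against WT ranged from 0 to 1 over the left-out libraries, while 299 to 923 of all genes were called. The difference in the mean over the members was 0.21 within numbers 1 to 6 and −0.89 within 7 to 10 for APP/PS1 against WT, and 0.18 and −0.39 for APP/PS1+N-AS against WT. Members whose difference changed between library sets numbered 12 to 28 over the left-out libraries in APP/PS1 against WT. In APP/PS1+N-AS against WT they numbered 0 to 11, with 1 on total counts and 5 with upper-quartile factors. For APP/PS1 against WT, leaving out libraries gave log2 fold changes of −0.69 to 0.41 for Syp, −0.66 to 0.10 for Slc17a7, −0.029 to 0.58 for Gria1 and −0.094 to 0.12 for Camk2a, which was −0.012 with at least 10 counts in every library. For APP/PS1+N-AS against APP/PS1 it gave −0.15 to 0.25 for Syp, −0.58 to 0.085 for Cplx2, −0.13 to 0.073 for Camk2a and −0.28 to 0.28 for Gria1, which was −0.076 with the replicate block and −0.10 with the covariate. For APP/PS1+N-AS against WT it gave −0.57 to 0.53 for Syp, −0.49 to 0.13 for Sv2a, −0.074 to 0.68 for Cplx2, −0.91 to 0.11 for Slc17a6, −0.085 to 0.43 for Shank1, −0.23 to 0.11 for Nrxn3, −0.13 to 0.10 for Camk2a, −0.28 to 0.48 for Slc17a7 and −0.12 to 0.20 for Pclo. There Camk2a was 0.0083 with no filter, Slc17a7 was 0.10 with limma, 0.020 with the replicate block and 0.0034 with the covariate, and Pclo was −0.018 on total counts, −0.0080 with upper-quartile factors, −0.0075 with at least 10 counts, −0.0069 with the replicate block and −0.0096 with the covariate. Beyond the left-out libraries, the cause was not tested. Slc17a6, with 45 to 315 counts, is the member most limited by depth.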
